A study of Mus musculus with 7 samples.

Results

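The collagen genes of the mouse were described across 7 RNA-seq libraries of the mammary gland at lactation day 1. They were chosen by name: all protein-coding genes whose symbol has the form Col, a number, the letter a and a second number, which gave 43 of the 37310 genes listed. Of these, 38 passed the filter on low values (5 or more counts in 4 or more libraries) and entered the test, which covered 17175 genes. The 43 genes comprise 11 fibrillar, 6 basement membrane and 26 other collagens, of which 9, 6 and 23 were tested. The least abundant member inside the limit was *Col25a1*, with 4 to 34 counts and 6 libraries at 5 or more. The member just outside was *Col19a1*, with 1 to 17 counts and 2 such libraries, and *Col2a1*, *Col10a1*, *Col22a1* and *Col24a1*, the other genes left out, held 0 to 10 counts in any library.

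The 3 WT libraries came from C57BL/6 mice with unaltered *Tardbp* alleles and the 4 KO libraries from mice of the same strain that lacked *Tardbp*, the gene of the RNA-binding protein TDP-43, in the mammary epithelium. In the KO mice exons 2 and 3 of *Tardbp* were flanked by loxP sites. Mice of both groups carried a Cre recombinase transgene driven by the promoter of the whey acidic protein gene, which is active in luminal epithelial cells from pregnancy to lactation. Fibroblasts, vascular cells and myoepithelial cells, which are known sources of collagen, are not cells for which this promoter was chosen. Total RNA was taken from the whole gland, and the labels give neither the age of the mice nor any agent. *Tardbp* itself, counted over all of its exons and in all cells of the tissue, was at 187 ± 32.6 CPM (counts scaled to library size; SD, n = 3) in WT and 188 ± 28.2 (SD, n = 4) in KO, so that its gene count does not check the labels. Library totals were 36007737 to 42811337 counts. Transcripts of the 7 milk protein genes took 26.3 to 34.0% of all counts in WT and 12.7 to 21.8% in KO, and the scaling by the trimmed mean of M values (TMM) set the effective library sizes to compensate for such shifts.

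Collagens are triple-helical proteins of the extracellular matrix, with glycine in each Gly-X-Y triplet of the helix. Fibrillar collagens (types I, II, III, V, XI, XXIV and XXVII) assemble into the fibres that give stroma its strength and are mainly products of fibroblasts. Type IV collagens form the sheet-like network of basement membranes, on which mammary epithelial, myoepithelial, endothelial and fat cells rest. The other collagens include the beaded filaments of type VI, the FACIT collagens (fibril-associated collagens with interrupted triple helices), which decorate fibrils, the anchoring fibrils of type VII, the transmembrane collagens, and types XV and XVIII, which bear heparan or chondroitin sulphate chains and lie at basement membranes.

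The level of no collagen gene was called different between KO and WT, and the 3 classes had median log2 fold changes close to 0. With the limits used in the study (adjusted p below 0.01, fold change above 1 on the log2 scale in either direction), edgeR's quasi-likelihood test called 0 of the 38 collagens, and it called 0.0% of the 17175 genes. edgeR's exact test and DESeq2's Wald test also called 0 of the 38, beside 2.44% and 3.33% of all genes. The quasi-likelihood test gave an unadjusted p under 0.05 for 3 of the 38 collagens (7.89%), beside 21.4% of all genes. These were *Col6a4*, higher in KO, and *Col16a1* and *Col9a1*, lower in KO, where 10.7% of all genes were higher and 10.7% were lower by the same limit. In the same 3 genes the WT and KO libraries did not overlap, which held in 7.89% of the collagens and in 18.7% of all genes (every KO library higher in 9.07%, every KO library lower in 9.62%).

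The median log2 fold change, KO against WT, was -0.08 for the 9 fibrillar collagens (range -0.45 to 0.42), 0.03 for the 6 basement membrane collagens (-0.14 to 0.33) and -0.12 for the 23 other collagens (-0.91 to 0.88), beside 0.05 for all genes. The size of the change without its sign had a median of 0.18 in collagens and 0.31 in all genes. The collagens differed more between libraries of the same genotype than most genes did: the SD of log2 CPM within genotypes had a median of 0.65, beside 0.34 for all genes, and 29 of the 38 collagens lay above the latter. The precision was accordingly low. The 95% confidence interval lay inside a 2-fold change in either direction for 13 of the 38 genes (2 fibrillar, 2 basement membrane and 9 other), and for the remaining genes a 2-fold difference lay within the interval. Whether the WT and KO mice came from separate litters is not given, and the p-values measure the spread between these libraries.

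**Figure D1:**
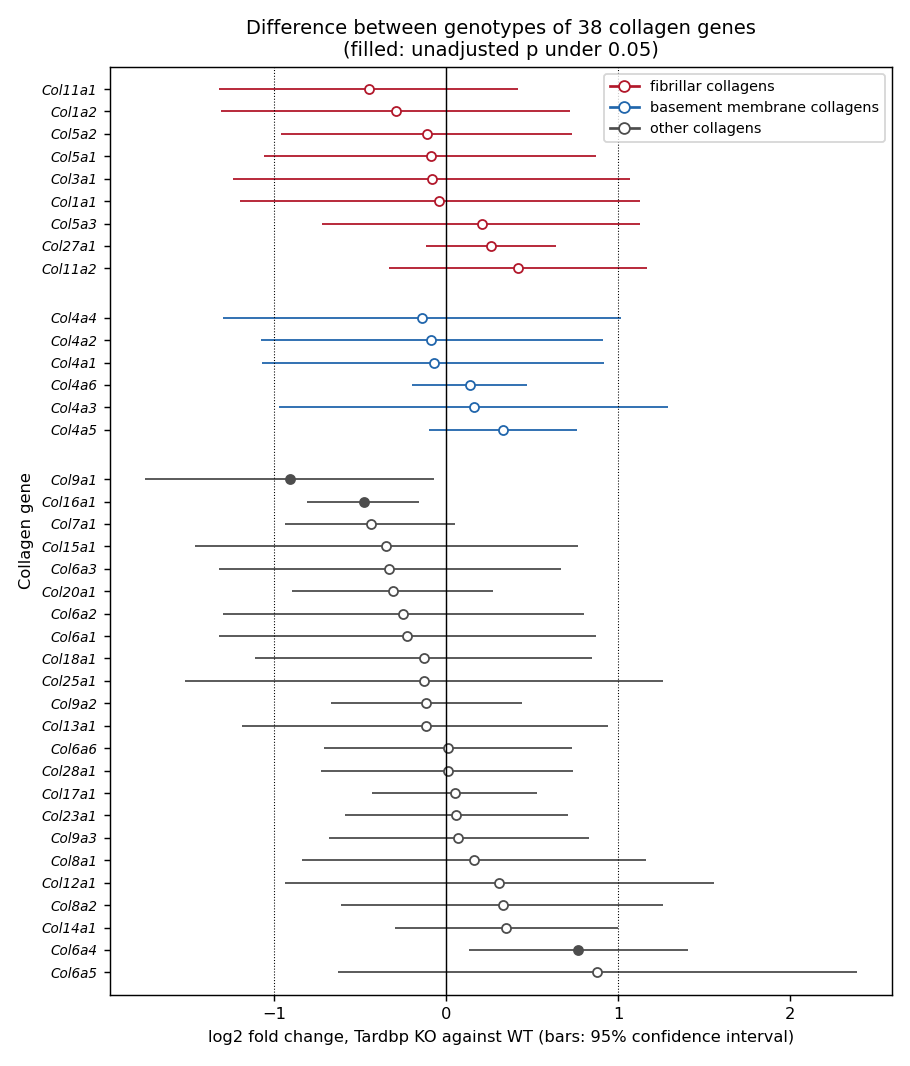
The log2 fold change of each of the 38 tested collagen genes, KO against WT (x axis), with its 95% confidence interval as a bar, by class and in order of the fold change (y axis). The dotted lines mark a 2-fold change, filled points are the 3 genes with an unadjusted p under 0.05, and the intervals of all fibrillar and basement membrane collagens hold 0.

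The genes of types III, IV, I and IX led the list of levels. Per exon length, as RPKM (CPM divided by the exon length in kilobases, mean ± SD over the 7 libraries), *Col3a1* stood at 102 ± 48.2, *Col4a1* at 68.8 ± 31.2, *Col1a1* at 60.2 ± 29.0, *Col9a1* at 52.2 ± 22.5, *Col4a2* at 52.2 ± 24.3 and *Col1a2* at 32.6 ± 14.1. In WT alone *Col9a1* stood second, at 71.3 RPKM beside 70.8 for *Col4a1*, and in KO it stood at 38 RPKM, below *Col4a2* at 50.9. These 6 genes took 63.3 to 74.0% of the summed RPKM of the collagens in each library. Neighbours in this order mostly did not differ beyond their spread: *Col3a1* exceeded *Col4a1* in 5 of 7 libraries, *Col4a1* exceeded *Col1a1* in 5 of 7, and *Col1a1* exceeded *Col9a1* in 4 of 7. *Col4a2* was higher than *Col1a2*, and *Col6a1* higher than *Col6a2*, in 7 of 7 libraries. The order of *Col1a2* depends on the length used, since its annotated exons span 12145 bases and its coding sequence 4119: on coding length *Col9a1* moved to rank 2 and *Col1a2* to rank 3, and *Col6a2* exceeded *Col6a1* (40.1 and 38.1 RPKM). *Col4a3* and *Col4a4*, the chains of the kidney and lung basement membrane, stood at 0.0695 and 0.0887 RPKM, and the cartilage gene *Col2a1* at 0.00554 RPKM.

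**Figure D2:**
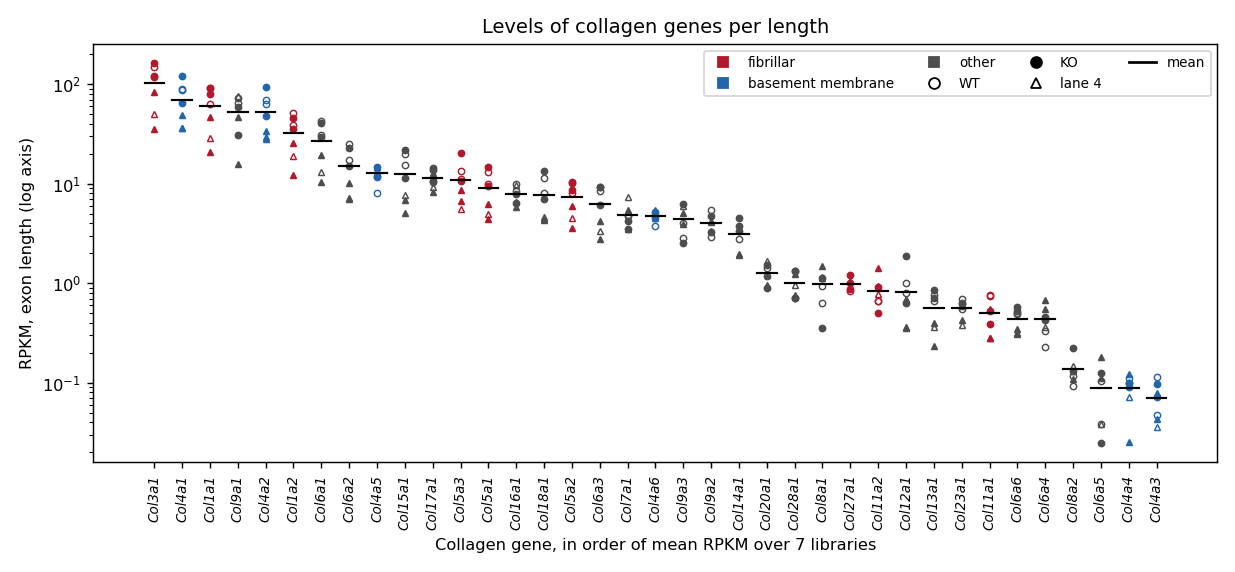
RPKM of the collagen genes above 0.05 RPKM in each library (y axis, log scale), in order of the mean over 7 libraries (x axis; black bars are means). Colours give the class, open symbols WT, filled symbols KO, and triangles the libraries of lane 4, which lie at the bottom of the range for *Col3a1*, *Col4a1* and *Col1a1*.

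Of the fibrillar collagens, *Col3a1* (NCBIM37, chr1:45368383-45406551), the gene of the type III homotrimer, was at 1010, 417 and 1240 CPM in WT libraries 1 to 3 and at 986, 1370, 694 and 299 CPM in KO libraries 1 to 4. *Col1a1* (chr11:94797538-94814356), the major chain of type I collagen, was at 415, 188 and 599 CPM in WT and at 519, 601, 305 and 137 CPM in KO. *Col1a2*, the second chain of type I, was at 472, 233 and 622 CPM in WT and at 432, 550, 311 and 148 CPM in KO. In each of these genes the lowest 3 libraries were WT 2, KO 4 and KO 3, and the genotypes overlapped. The log2 fold changes were -0.08 (95% CI -1.24 to 1.07) for *Col3a1*, -0.04 (-1.20 to 1.13) for *Col1a1* and -0.29 (-1.31 to 0.72) for *Col1a2*, with adjusted p of 0.946, 0.980 and 0.748 by edgeR's quasi-likelihood test.

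*Col5a3*, a chain of type V collagen, was at 92.3, 37.7 and 75.1 CPM in WT and at 138, 72.8, 58.6 and 46.1 CPM in KO, and its relatives *Col5a1* and *Col5a2* lay between 37.8 and 124 CPM and between 34.2 and 98.6 CPM. *Col27a1*, a fibrillar collagen of cartilage and other tissues, was one of the few collagens with little spread, at 10.9, 11.7 and 11.5 CPM in WT and 15.9, 13.1, 13.8 and 11.7 CPM in KO. Its log2 fold change was 0.26 (95% CI -0.12 to 0.64). The chains of type XI were low. *Col11a1* was at 7.22, 2.74 and 7.31 CPM in WT and 3.77, 5.06, 5.28 and 2.72 CPM in KO, and *Col11a2* was at 4.51, 5.36 and 4.58 CPM in WT and 6.24, 3.41, 6.43 and 9.71 CPM in KO. Their log2 fold changes of -0.45 and 0.42 were the extremes of the class, both with intervals that held 0 (-1.32 to 0.42 and -0.33 to 1.17).

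Of the basement membrane collagens, *Col4a1* (chr8:11198423-11312826) and *Col4a2* (chr8:11312805-11449287), whose products form the common trimer of basement membranes, moved together from library to library. *Col4a1* was at 605, 250 and 593 CPM in WT and at 816, 441, 334 and 245 CPM in KO. *Col4a2* was at 422, 196 and 456 CPM in WT and at 617, 320, 222 and 187 CPM in KO. Both genes were highest in KO 1 and lowest in KO 4 and WT 2, and their log2 fold changes were -0.07 (95% CI -1.07 to 0.92) and -0.09 (-1.08 to 0.91). The ratio of *Col4a1* to *Col4a2* per exon length was 1.32 ± 0.0804 (SD, n = 7). The log2 ratio thus had an SD of 0.09 over libraries in which each gene by itself had an SD of 0.67. Such joint movement was not particular to this pair. The log2 ratio of *Col3a1* to *Col1a1*, which lie on different chromosomes, had an SD of 0.11. Those of *Col6a1* to *Col6a2* and to *Col6a3* had an SD of 0.15 each.

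These genes lie head to head, and their transcripts share 22 exon bases in the annotation of the files. RefSeq places their starts 21 bases apart (GRCm38.p6), and the windows from 250 bases before to 50 bases after each start share 78 bases. They are shown because of the joint movement of the genes, though the part of this region in that movement was not tested. Both are given 5′ to 3′ on the strand of each gene. Matches on either strand to the CCAAT box (CCAAT) and the GC box (GGGCGG) are in capitals. The *Col4a1* window is chr8:11312777-11313076 on the minus strand and the *Col4a2* window chr8:11312555-11312854 on the plus strand.
Col4a1: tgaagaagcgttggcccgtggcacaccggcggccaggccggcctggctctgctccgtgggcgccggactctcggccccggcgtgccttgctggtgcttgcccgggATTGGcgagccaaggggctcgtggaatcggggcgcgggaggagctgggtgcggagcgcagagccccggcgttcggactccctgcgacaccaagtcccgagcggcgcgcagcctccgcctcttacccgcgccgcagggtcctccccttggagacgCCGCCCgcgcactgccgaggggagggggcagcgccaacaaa
Col4a2: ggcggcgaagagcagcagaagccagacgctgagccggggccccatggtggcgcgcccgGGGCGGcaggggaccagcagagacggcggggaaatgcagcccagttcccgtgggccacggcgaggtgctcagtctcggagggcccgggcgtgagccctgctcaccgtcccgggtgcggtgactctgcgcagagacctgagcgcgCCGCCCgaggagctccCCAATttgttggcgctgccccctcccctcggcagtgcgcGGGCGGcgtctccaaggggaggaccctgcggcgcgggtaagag
The windows hold 1 CCAAT match each, at -145 and -32 from the start, and 1 and 3 GC box matches.

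The X-linked pair *Col4a5* and *Col4a6*, which are also head to head and form the trimer found in basement membranes of smooth muscle and some epithelia, did not follow *Col4a1*. *Col4a5* was at 53.8, 89.2 and 80.1 CPM in WT and at 78.9, 98.0, 98.3 and 99.6 CPM in KO. *Col4a6* was at 30.1, 36.5 and 41.4 CPM in WT and at 36.1, 38.5, 40.5 and 43.3 CPM in KO. Neither was low in the libraries in which *Col4a1* was low, and the genotypes overlapped in both. The log2 fold changes were 0.33 (95% CI -0.10 to 0.76, adjusted p = 0.354) and 0.14 (-0.20 to 0.47, adjusted p = 0.637) by the quasi-likelihood test. The ratio of *Col4a1* to *Col4a5* per exon length ranged from 2.43 to 11.1 over the 7 libraries, whereas *Col4a5* to *Col4a6* ranged from 2.13 to 3.03. *Col4a3* and *Col4a4* were near the limit of detection, at 0.357 to 1.13 and 0.213 to 1.02 CPM, where 3 counts correspond to 0.0614 to 0.113 CPM. *Col4a3* was at 1.13, 0.357 and 0.476 CPM in WT and 0.717, 0.966, 0.778 and 0.427 CPM in KO.

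Among the other collagens, *Col16a1* (chr4:129725084-129776527), a FACIT collagen of fibrils and of the zone beneath basement membranes, had the lowest p of all collagens. It was at 56.9, 65.1 and 67.3 CPM in WT and at 43.1, 53.8, 39.6 and 44.2 CPM in KO, so that every KO library lay below every WT library. The log2 fold change was -0.48 (95% CI -0.81 to -0.16; SE 0.144), with an unadjusted p of 0.00871 and an adjusted p of 0.12 by the quasi-likelihood test, which does not pass the limit of 0.01. DESeq2 gave an adjusted p of 0.0323, the only one under 0.05 among the collagens. The exact permutation test of log2 CPM, two-sided, gave p = 0.0571, the smallest that 3 libraries against 4 allow. With lane as a term the log2 fold change was -0.47, and with library size in place of TMM it was -0.12, beside a median of 0.42 for all genes under that scaling.

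*Col9a1* (chr1:24184449-24259577), a chain of the FACIT collagen type IX best known from cartilage, was one of the most abundant collagen transcripts of the WT gland. It was at 329, 391 and 376 CPM in WT and at 158, 300, 80.9 and 239 CPM in KO, which is 71.3 ± 6.34 RPKM (SD, n = 3) and 38 ± 18.6 RPKM (SD, n = 4). Every KO library lay below every WT library, and the KO libraries spread over a wider range than WT. The log2 fold change was -0.91 (95% CI -1.75 to -0.07), with an unadjusted p of 0.0375 and an adjusted p of 0.204 by the quasi-likelihood test. The exact permutation test gave its smallest value, p = 0.0571. The unadjusted p exceeded 0.05 with library size in place of TMM (0.145, log2 fold change -0.57), without KO 1 (0.0832), without WT 1 (0.0579), WT 2 (0.0839) or WT 3 (0.0826).

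The partner chains of type IX were far less abundant. *Col9a2* was at 8.95, 13 and 16.9 CPM in WT and at 10.1, 14.5, 10.3 and 12.9 CPM in KO. *Col9a3* was at 11, 22.8 and 15.5 CPM in WT and at 9.87, 24.3, 15.3 and 19.7 CPM in KO. Both overlapped between the genotypes, with log2 fold changes of -0.12 (95% CI -0.67 to 0.44) and 0.07 (-0.68 to 0.83). The ratio of *Col9a1* to *Col9a2* per exon length, which does not depend on the scaling of a library, was 22.2, 18.2 and 13.4 in WT and 9.48, 12.5, 4.74 and 11.2 in KO. The ratio to *Col9a3* was 22.4, 12.9 and 18.3 in WT and 12, 9.29, 3.98 and 9.12 in KO. Every KO ratio was below every WT ratio in both cases (exact permutation test of the log2 ratio, two-sided, p = 0.0571, adjusted p = 0.343 over the 12 chain ratios computed). The other 10 ratios overlapped between the genotypes. *Col2a1*, the fibrillar collagen that type IX coats in cartilage, had 0 to 2 counts in each library. Of the 6 genes in the list of cartilage and bone markers, *Sox9* was at 75.1 to 175 CPM. The others were low, with *Acan* at 0 to 0.119 CPM, *Matn3* at 0 to 0.123 CPM and *Ibsp* at 0 to 0.0409 CPM. *Sp7* was at 0 to 0.164 CPM and *Bglap* at 0 to 0.0819 CPM.

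**Figure D3:**
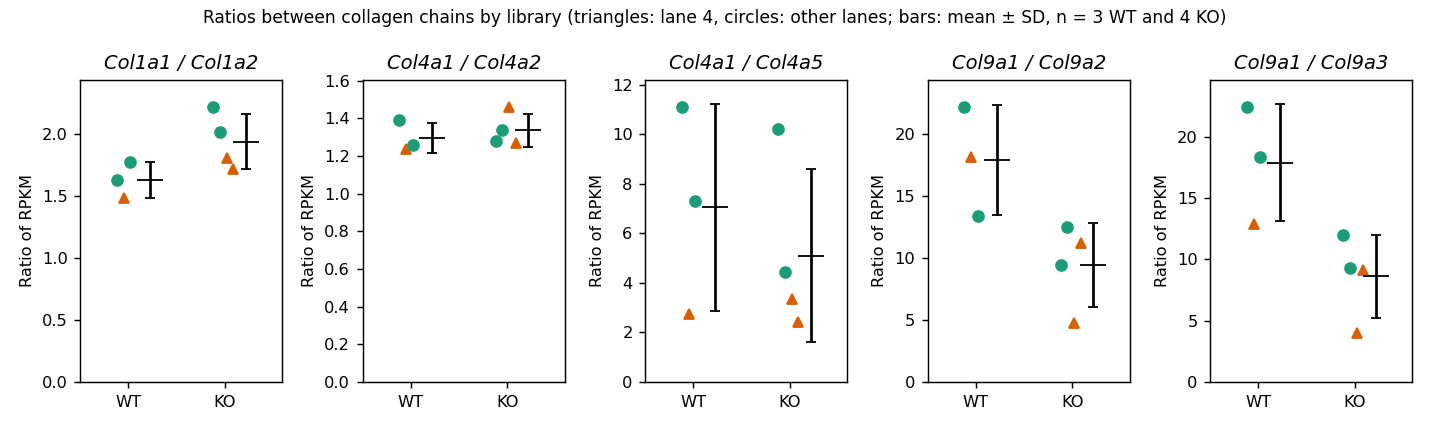
Ratio of the RPKM of pairs of collagen chains in each library (y axes, from 0), WT and KO (x axes), with the mean and SD beside the points (n = 3 and 4) and triangles for lane 4. The ratio of *Col4a1* to *Col4a2* stays between 1.24 and 1.46, and the ratios of *Col9a1* to *Col9a2* and *Col9a3* are lower in all KO libraries than in all WT libraries.

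RefSeq gives *Col9a1* starts 17593 bases apart (GRCm38.p6), of a long and a short form of the protein. The gene counts do not separate these forms, so both windows are shown, with that of *Col16a1*, as the promoters of the collagens that were lower in KO with a p under 0.05. Matches to both boxes are again in capitals. The *Col9a1* windows are chr1:24177360-24177659 and chr1:24194953-24195252, and the *Col16a1* window is chr4:130047590-130047889, all on the plus strand.
Col9a1, upstream start: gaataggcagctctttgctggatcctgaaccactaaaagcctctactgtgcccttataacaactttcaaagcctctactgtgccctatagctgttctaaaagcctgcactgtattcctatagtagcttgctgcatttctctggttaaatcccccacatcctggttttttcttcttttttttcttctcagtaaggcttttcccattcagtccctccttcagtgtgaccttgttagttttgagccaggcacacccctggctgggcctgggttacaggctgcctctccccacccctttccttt
Col9a1, downstream start: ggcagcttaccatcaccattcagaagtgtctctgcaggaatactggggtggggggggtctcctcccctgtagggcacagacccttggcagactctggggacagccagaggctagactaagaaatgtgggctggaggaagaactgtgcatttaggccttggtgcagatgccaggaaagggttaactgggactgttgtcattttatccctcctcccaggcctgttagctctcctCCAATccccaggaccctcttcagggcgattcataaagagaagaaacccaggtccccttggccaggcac
Col16a1: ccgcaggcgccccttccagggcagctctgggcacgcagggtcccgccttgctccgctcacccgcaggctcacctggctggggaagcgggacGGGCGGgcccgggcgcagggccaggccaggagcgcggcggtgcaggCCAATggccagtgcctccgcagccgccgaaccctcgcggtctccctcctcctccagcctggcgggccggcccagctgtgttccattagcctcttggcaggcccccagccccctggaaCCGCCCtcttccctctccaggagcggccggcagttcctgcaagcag
The upstream *Col9a1* window holds none of the motifs, the downstream one holds a CCAAT match at -18, and the *Col16a1* window holds a CCAAT match at -113 and 2 GC box matches.

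*Col6a4* (chr9:105891785-105999114), a chain of type VI collagen encoded next to *Col6a5* and *Col6a6*, was the collagen with a p under 0.05 in the direction of higher levels in KO. It was low, at 1.96, 3.10 and 2.85 CPM in WT and 3.61, 3.87, 5.81 and 4.72 CPM in KO, and every KO library exceeded every WT library. The log2 fold change was 0.77 (95% CI 0.13 to 1.41), with an unadjusted p of 0.0238 and an adjusted p of 0.168 by the quasi-likelihood test, and 0.69 with lane as a term. The unadjusted p was 0.0861 without WT 1 and 0.071 without KO 3. The common chains of type VI, which make the beaded filaments of stroma, overlapped between the genotypes. *Col6a1* was at 137, 57.7 and 189 CPM in WT and at 178, 129, 84.8 and 45.7 CPM in KO, and *Col6a2* was at 145, 59.0 and 207 CPM in WT and at 191, 126, 83.8 and 60.3 CPM in KO. Their log2 fold changes were -0.23 (95% CI -1.32 to 0.87) and -0.25 (-1.30 to 0.80). The ratio of *Col6a1* to *Col6a3* per exon length was 4.26 ± 0.447 (SD, n = 7).

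*Col7a1*, the collagen of the anchoring fibrils that tie basement membranes to stroma, was at 48.8, 74.7 and 49.8 CPM in WT and at 43.2, 35.4, 35.5 and 56.1 CPM in KO. Its unadjusted p was 0.0747 (log2 fold change -0.44) and was 0.0321 (-0.48) with lane as a term, 0.0129 (-0.62) without KO 4 and 0.342 (-0.21) without WT 2. *Col15a1*, a collagen at the outer face of basement membranes, was at 126, 48.6 and 98.6 CPM in WT and at 138, 72.6, 43.5 and 32.0 CPM in KO, with a log2 fold change of -0.35 (95% CI -1.46 to 0.77) that ranged from -0.88 without KO 1 to -0.04 without WT 1, and its relative *Col18a1*, the source of endostatin, lay between 30.0 and 94.7 CPM. *Col17a1*, the transmembrane collagen of hemidesmosomes, lay between 48.0 and 82.1 CPM with a log2 fold change of 0.05 (-0.43 to 0.53). By structural subclass, the median log2 fold change was -0.11 in the 6 type VI chains, -0.12 in the 7 FACIT collagens (*Col9a1*, *Col9a2*, *Col9a3*, *Col12a1*, *Col14a1*, *Col16a1* and *Col20a1*), -0.04 in the 4 transmembrane collagens (*Col13a1*, *Col17a1*, *Col23a1* and *Col25a1*), 0.24 in the 2 short-chain collagens (*Col8a1* and *Col8a2*), -0.24 in *Col15a1* and *Col18a1*, and -0.22 in *Col7a1* and *Col28a1*. The highest fold change of any collagen, 0.88 for *Col6a5*, had an interval from -0.63 to 2.39 on 10 to 82 counts per library.

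**Figure D4:**
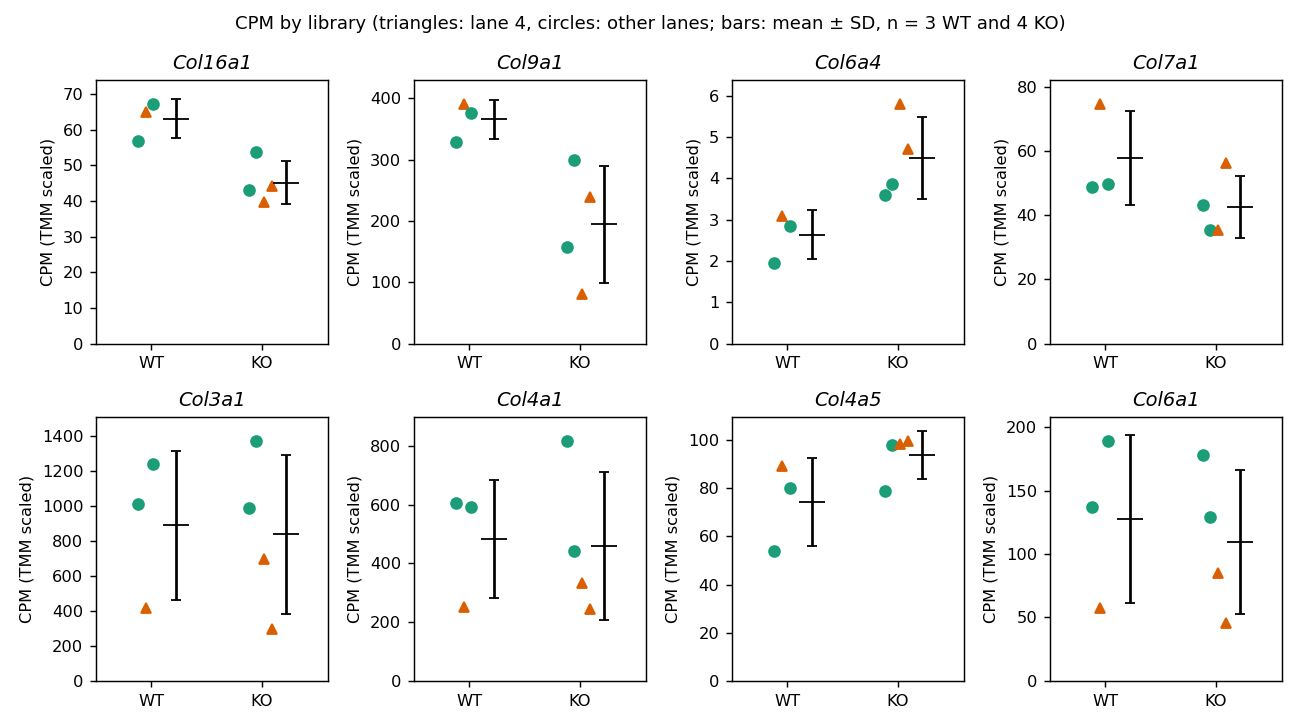
CPM after TMM scaling (y axes, from 0) of 8 collagen genes in WT and KO libraries (x axes), with the mean and SD beside the points (n = 3 and 4). WT and KO points are apart in *Col16a1*, *Col9a1* and *Col6a4*, and the triangles (lane 4) are the lowest points in *Col3a1*, *Col4a1* and *Col6a1*, across both genotypes.

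Much of the spread of the collagens within each genotype ran with the lane number in the library names. WT 2, KO 3 and KO 4 were read in lane 4 and each of the other libraries in a lane of its own. In 15 of the 38 collagens (39.5%) all 3 lane 4 libraries lay below all 4 others, beside 4.19% of all genes. This was the case for 6 of 9 fibrillar collagens (*Col1a1*, *Col1a2*, *Col3a1*, *Col5a1*, *Col5a2* and *Col5a3*), for *Col4a1* and *Col4a2* of 6 basement membrane collagens, and for 7 of 23 others (*Col6a1*, *Col6a2*, *Col6a3*, *Col6a6*, *Col13a1*, *Col15a1* and *Col18a1*). *Col8a1* was the collagen with all lane 4 libraries above the others. Within WT the lane 4 library was lower than the others by a median log2 difference of -1.19 in fibrillar, -0.73 in basement membrane and -0.65 in other collagens, and within KO the differences were -1.02, -0.57 and -0.31, beside 0.01 for all genes in both genotypes. With lane 4 as a term the median SD of the collagens fell from 0.65 to 0.37 and that of all genes from 0.34 to 0.31. The lane was looked at after the values had been seen, and the sources do not say what else the libraries of lane 4 share, such as a day or a dissection.

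With the lane term the median log2 fold changes were 0.14 in fibrillar, 0.12 in basement membrane and 0.02 in other collagens, and 4 collagens had a p under 0.05, the 3 above and *Col7a1*, where 21.5% of all genes did. Within lane 4 alone, with 1 WT and 2 KO libraries and no test, the medians were 0.24, 0.17 and 0.06. The sign of the fibrillar and other medians thus changed with the lane. *Col16a1*, *Col9a1* and *Col6a4* were at -0.64, -1.29 and 0.77 within lane 4. Their WT and KO libraries did not overlap, so that their sign within lane 4 was largely set in advance and does not test the lane.

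**Figure D5:**
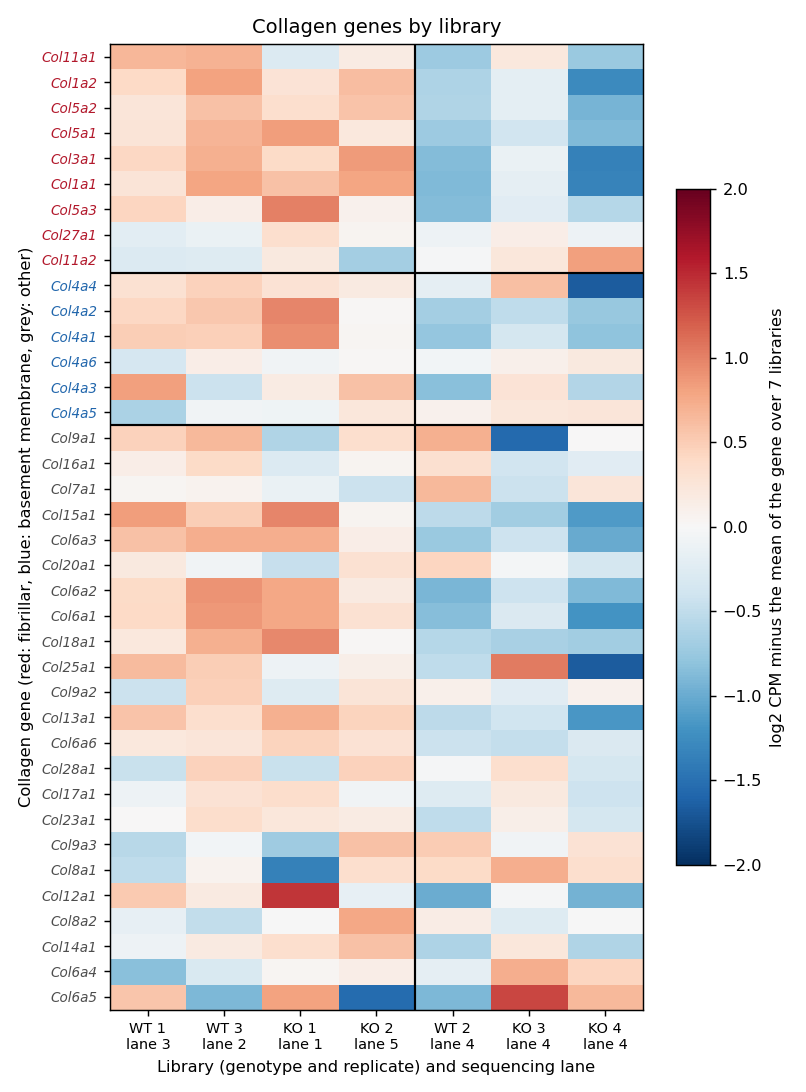
log2 CPM of 38 collagen genes relative to the mean of each gene over the 7 libraries (colour scale), by gene (rows, by class) and library (columns, with lane 4 to the right of the line). Most fibrillar genes, *Col4a1*, *Col4a2* and *Col6a1* to *Col6a3* are blue in all 3 lane 4 libraries, WT 2 included, and *Col4a5*, *Col4a6* and *Col27a1* are not.

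The summed level of 8 fibroblast markers was 299, 202 and 396 CPM in WT and 334, 406, 320 and 143 CPM in KO, that of 8 endothelial markers 325 to 571 CPM and that of 7 pericyte and smooth muscle markers 199 to 355 CPM, each lowest in KO 4 and second lowest in WT 2. All 3 lane 4 libraries lay below the others in 3 of 8, 2 of 8 and 3 of 7 of these markers, beside 4.19% of all genes. The summed CPM of the fibrillar collagens was 4.70 to 5.07 times that of the fibroblast markers in lane 4 and 6.89 to 7.26 times in the other libraries. The corresponding ratios of the basement membrane collagens overlapped between lane 4 and the other libraries, at 2.18 to 4.02 and 2.22 to 4.64 times the fibroblast markers and 1.48 to 1.77 and 1.70 to 2.71 times the endothelial markers. The 8 myoepithelial markers summed to 1920, 1130 and 1840 CPM in WT and 2890, 979, 1150 and 1110 CPM in KO. Their sum was lowest in KO 2, which was not read in lane 4. In 1 of these 8 markers all lane 4 libraries lay below the others. In whole tissue, fewer fibroblasts and less collagen RNA per fibroblast cannot be told apart. Between the genotypes, where 21.4% of all genes had a p under 0.05, 0 of 8 fibroblast markers passed that limit (median log2 fold change -0.04, with *Dpt* at 0.11 and *Thy1* at 0.26), as had 1 of 8 endothelial markers (*Cldn5*, higher in KO at 1.06 and named after its value was seen, median -0.11, *Cdh5* at -0.03 and *Pecam1* at 0.25), 0 of 7 pericyte markers (-0.02, *Notch3* at 0.18 and *Rgs5* at -0.26) and 0 of 8 myoepithelial markers (-0.27, *Acta2* at 0.17 and *Myh11* at -0.02).

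Markers of lymphocytes and milk protein genes were apart in level between the genotypes. Beside the counts below, 10.7% of all genes were higher and 10.7% lower in KO with a p under 0.05. Every KO library was above every WT library in 9.07% of all genes and below in 9.62%. All 10 lymphocyte markers were higher in KO with a p under 0.05 (median log2 fold change 2.56, *Ighm* at 2.29 and *Ptprc* at 1.93), and their summed level was 40.0 to 56.3 CPM in WT and 72.7 to 563 CPM in KO. The 7 milk protein genes were lower in every KO library than in every WT library (median -1.10, *Csn2* at -1.08 and *Wap* at -1.10), and the 8 luminal markers, which share *Csn2*, *Wap* and *Lalba* with them, summed to 169000 to 237000 CPM in WT and 56100 to 127000 CPM in KO. Of the other luminal markers, named after their values were seen, *Elf5* was lower in every KO library (-0.59), *Cdh1* (0.77) and *Krt8* (0.55) were higher in every KO library, each with a p under 0.05, and *Krt18* and *Epcam* were at 0.64 and 0.26. The 7 myeloid markers had a median of 0.62 (*Cd14* at 1.49 and *Lyz2* at 0.68) and the 8 adipocyte markers one of 0.23 (*Fabp4* at -0.09 and *Cfd* at 0.49), each with 0 of its genes at a p under 0.05. Of the 6 Schwann cell markers *Mbp* had a p under 0.05 (0.51), and *Sox10* was at -0.10. The skeletal muscle markers summed to 1.63 to 5.02 CPM (*Mylpf* at 0.49 and *Acta1* at 0.98, 0 with a p under 0.05). Of the cartilage and bone markers *Sox9*, at 75.1 to 175 CPM and a log2 fold change of 0.41, was the one above 1 CPM, and *Sp7* was at 0 to 0.0596 CPM in WT and 0.138 to 0.164 CPM in KO, near the limit of detection, with an unadjusted p under 0.05. The part of these cells in the collagen values was not tested.

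The genes that make and handle collagen protein were taken from 6 lists, and their counts of p under 0.05 stand beside 21.4% of all genes (10.7% in each direction). In the list of folding and modification in the endoplasmic reticulum, 1 of 18 genes had a p under 0.05 in the higher and 2 in the lower direction (16.7% in all). *P4hb*, protein disulphide isomerase and the beta subunit of prolyl 4-hydroxylase, was at 1400, 809 and 1250 CPM in WT and 569, 518, 451 and 694 CPM in KO (log2 fold change -1.05, adjusted p = 0.0844 by the quasi-likelihood test and 0.00262 by edgeR's exact test). *Ppib*, the cyclophilin that isomerises collagen prolines, had a log2 fold change of -0.74 and *Glt25d1*, a collagen galactosyltransferase, one of 0.57. *P4hb* and *Ppib* also serve the folding of other secreted proteins. *Serpinh1*, the collagen chaperone HSP47, had a log2 fold change of -0.14, and the prolyl hydroxylase subunits *P4ha1* and *P4ha2* had -0.11 and -0.25. None of 12 genes of procollagen cleavage and cross-linking had a p under 0.05, the lowest p being those of *Adamts3* (0.56), *Loxl4* (0.86) and *Loxl3* (-0.37).

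Of 12 collagen-binding matrix proteins 1 (8.33%, beside 21.4% of all genes) had a p under 0.05, *Prelp*, a leucine-rich proteoglycan that anchors basement membranes, at 40.9, 64.8 and 61.4 CPM in WT and 108, 135, 103 and 87.1 CPM in KO (log2 fold change 0.95, adjusted p = 0.0793 by the quasi-likelihood test). *Tnc*, tenascin C, had -1.04 and *Aspn*, asporin, -0.52. Of the 15 laminins, nidogens and other non-collagen basement membrane proteins, 0 had a p under 0.05, with *Agrn* at 0.45 and *Lamb3* at -0.50. In 9 of the 15 all lane 4 libraries lay below the others, as in *Col4a1* and *Col4a2*, beside 4.19% of all genes. Of 9 collagen receptors 2 (22.2%) had a p under 0.05, both higher in KO, a share near that of all genes. They were *Itga2*, the collagen-binding integrin subunit of epithelia and platelets (2.48, 3.49 and 3 CPM in WT and 5.47, 7.02, 7.37 and 4.45 CPM in KO; log2 fold change 1.02), and *Ddr1*, the collagen receptor tyrosine kinase of epithelia (0.90). *Itgb1*, the partner subunit of *Itga2*, had 0.23. Of 14 genes of the TGF-beta pathway, which controls collagen transcription, 5 were higher and 2 lower with a p under 0.05 (beside 10.7% of all genes in each direction). The ligand *Tgfb1* was at 22.4, 24.1 and 28.3 CPM in WT and 50.5, 39.7, 45.7 and 39.3 CPM in KO (0.81, adjusted p = 0.0692 by the quasi-likelihood test), and the ligand *Tgfb2* was at 50.5, 75.6 and 61.0 CPM in WT and 38.4, 28.5, 26.4 and 37.1 CPM in KO (-0.94). *Ltbp1*, which holds latent TGF-beta in the matrix, had 1.07. None of the 80 genes of these lists passed the limits by the quasi-likelihood test, while 13 had a p under 0.05, a smaller share than the 21.4% of all genes. Of those 13 genes, 7 belonged to the TGF-beta list, the list with the largest share.

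The class names follow the build of the proteins. The longest uninterrupted run of Gly-X-Y triplets in the annotated coding sequence of all 43 genes was 216 to 344 triplets in the fibrillar collagens (344 in *Col3a1*, 338 in *Col1a1*, 217 in *Col27a1*), 39 to 66 in the basement membrane collagens, whose helices are interrupted, and 28 to 113 in the others. *Col9a1*, *Col9a2* and *Col9a3* each had a run of 113. TDP-43 binds UG repeats in RNA, and runs of at least 3 UG dinucleotides occurred in the longest transcript of 28 of 38 tested collagens (73.7%) and of 71.5% of the 15112 tested genes with a coding transcript. Runs of at least 6 occurred in 1 of 38 collagens (2.63%) and in 6.33% of all genes. The collagen was *Col8a1*, with a run of 21, and its log2 fold change was 0.16 (95% CI -0.84 to 1.16). *Col16a1* and *Col6a4* had 0 runs and *Col9a1* had 2 runs, the longer of 4 UG. The 15 collagens low in lane 4 had transcripts with a median GC content of 56.7%, beside 53.6% for the other 23 and 50.6% for all genes.

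RefSeq promoter windows of 300 bases were found for 35 of the 43 collagen genes, 38 windows in all. *Col1a1*, *Col2a1*, *Col4a3*, *Col5a2*, *Col9a3*, *Col12a1*, *Col14a1* and *Col22a1* had no entry. The GC box (GGGCGG) occurred on either strand in 60.5% of the collagen windows and in 35.7% of the 32851 windows compared, which do not cover every chromosome. The CCAAT box (CCAAT) occurred in 34.2% of the collagen windows and 37.4% of those compared, and the TATA box (TATAAA) in 13.2% and 13.6%. The motif bound by STAT factors such as STAT5, a regulator of lactation (TTCNNNGAA), occurred in 5.26% and 8.3%. The windows of *Col1a2* (chr6:4505368-4505667) and *Col3a1* (chr1:45311288-45311587), both on the plus strand, are shown because these genes moved together over the libraries, with matches to the CCAAT, TATA and GC boxes in capitals.
Col1a2: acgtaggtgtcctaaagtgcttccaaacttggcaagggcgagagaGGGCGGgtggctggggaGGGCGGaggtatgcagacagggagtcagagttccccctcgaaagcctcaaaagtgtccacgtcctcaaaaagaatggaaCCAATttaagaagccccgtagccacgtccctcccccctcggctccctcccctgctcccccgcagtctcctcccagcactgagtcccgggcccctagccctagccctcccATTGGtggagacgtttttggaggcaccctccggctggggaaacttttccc
Col3a1: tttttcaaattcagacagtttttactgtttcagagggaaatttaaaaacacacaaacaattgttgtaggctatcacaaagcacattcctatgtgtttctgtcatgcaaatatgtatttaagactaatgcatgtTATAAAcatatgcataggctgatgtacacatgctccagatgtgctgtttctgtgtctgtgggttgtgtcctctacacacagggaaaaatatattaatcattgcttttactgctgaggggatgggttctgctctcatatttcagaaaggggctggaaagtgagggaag
The *Col1a2* window holds 2 CCAAT box and 2 GC box matches and no TATA box match, and the *Col3a1* window holds a TATA box match at -117 and neither of the others. Ratios per exon length were computed for each of these genes with *Col1a1*, which had no window. *Col3a1* to *Col1a1* was 1.72 ± 0.133 and *Col1a1* to *Col1a2* was 1.81 ± 0.246 (SD, n = 7), and the latter was 0.924 on coding length. The part of the promoter motifs in the joint movement was not tested.

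Reads were counted without regard to strand, so that reads in exons shared by genes are not assigned to either of them. Such overlap was small for the collagens. It was largest for *Col9a3*, which shares 234 of 3853 exon bases (6.07%) with *Tcfl5*, and *Col4a1* and *Col4a2* share 22 bases.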

How the data were processed

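Total RNA of mammary glands of 3 WT and 4 *Tardbp* KO mice was made into libraries with an Illumina TruSeq kit by the authors, who mapped paired-end reads to NCBIM37 with STAR (version 2.5.2a per the labels) and ran featureCounts. What was deposited are raw counts for each gene, with mates counted separately and without strand, as the file header shows no other setting. 1 library named in that header was not analysed here. Groups came from the labels' genotype.

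Left out were 37 mitochondrial and 580 ribosomal genes and all genes below the filter of 5 counts in 4 libraries. edgeR 4.0.16 was used for TMM scaling and the quasi-likelihood test with genotype as the only term, with Benjamini-Hochberg adjustment over all 17175 genes (R 4.3.3). CPM uses the TMM effective library size, and RPKM divides it by exon length. Single values were compared by exact permutation (scipy 1.17.1). The fits were tested on simulated data. Gene lists and members were chosen with earlier results of these data known. All tested collagens are named, with values of each library for the 4 highest per length and the 3 lowest p in each class and for those with p under 0.05 or separate groups, and also for *Col7a1*, *Col9a2* and *Col9a3*, chosen after their values were seen. The 3 lowest p of each partner list and the 2 most abundant genes of each marker list follow, apart from 1 gene that is not reported here, some with further genes chosen after their values were seen. The alternatives were other scalings, filters and tests (DESeq2 1.42.0), the replicate number as a block, each library left out, lane 4, and coding length. Depth allows 3 counts to be read as 0.0614 to 0.113 CPM. The confidence intervals of the fold changes come from the quasi-likelihood fit and include the spread between libraries.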

Additional observations from a re-analysis of the deposited data

Results flagged for a closer look

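*Col4a5* was flagged because 1 of 4 KO libraries stood far from the rest. KO 1 was at 78.9 CPM and the others at 98.0 to 99.6 CPM, so that the gap took 0.923 of the range, above the 95% critical value of Dixon's test for 4 samples. KO 1 lay inside the WT range of 53.8 to 89.2 CPM. Chance flags about 1 in 20 groups, and 1 of the 19 collagen genes looked at in this way was flagged.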

How the results depend on the processing

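No collagen gene was called at the study's limits under any of the scalings, filters, tests, block or left-out libraries run. Nor was any called by the quasi-likelihood test at an adjusted p of 0.05 with no limit on the fold change. Most of these settings use the quasi-likelihood test. In the main fit it called 0.0% of all genes at the study's limits, with a lowest adjusted p of 0.0165. Its lack of calls is thus not particular to collagens. The exact test and DESeq2 called 2.44% and 3.33% of all genes. Of 399 values for 19 collagen genes under the alternatives, 330 kept their sign and, except within lane 4 alone, where there was no test, their side of an unadjusted p of 0.05, 8 no longer passed it, 10 newly passed it and 51 changed sign, none of the latter in *Col16a1*, *Col9a1*, *Col6a4* or *Col7a1*. The cause was not tested. In *Col16a1*, *Col9a1* and *Col6a4* the WT and KO libraries did not overlap, so that their sign in subsets of the libraries was largely set in advance. Library size in place of TMM moved the median of all genes from 0.05 to 0.42, of fibrillar collagens to 0.32, of basement membrane collagens to 0.41 and of the other collagens to 0.3, and gave 6 collagens and 22 partner genes with a p under 0.05 in place of 3 and 13. It turned *Col1a1* to 0.36, *Col1a2* to 0.1, *Col3a1* to 0.32, *Col4a1* to 0.32, *Col4a2* to 0.3, *Col6a1* to 0.16, *Col6a2* to 0.13 and *Col15a1* to 0.06, all below the shift of all genes. The lane term turned *Col1a1* to 0.18, *Col3a1* to 0.14, *Col4a1* to 0.13, *Col4a2* to 0.08, *Col6a1* to 0.02 and *Col6a2* to 0.02. Within lane 4 alone *Col1a1* was 0.24, *Col3a1* 0.25, *Col4a1* 0.21, *Col4a2* 0.06, *Col6a1* 0.18, *Col6a2* 0.29 and *Col11a1* 0.55. The replicate number as a block gave *Col1a1* 0.34, *Col1a2* 0.03, *Col3a1* 0.26, *Col4a1* 0.15, *Col4a2* 0.09, *Col6a1* 0.14 and *Col6a2* 0.08, with 4 collagens at a p under 0.05 and 0 called. The same-numbered libraries had correlations of their deviations of 0.351, 0.094 and -0.058, and KO 2 correlated best with WT 3 (0.104), so that the numbers were not taken as pairs. Leaving out 1 library gave 1 (without WT 1) to 5 (without KO 2) collagens with a p under 0.05, and 10 (without WT 1) to 21 (without WT 2) partner genes, and class medians of -0.38 to 0.24 (fibrillar), -0.22 to 0.12 (basement membrane) and -0.18 to 0.17 (other), the ends set by WT 2 and WT 3, or KO 4 for the upper basement membrane value. Over the left-out libraries the log2 fold change ranged from -0.38 to 0.37 in *Col1a1*, from -0.6 to 0.03 in *Col1a2*, from -0.43 to 0.23 in *Col3a1*, from -0.51 to 0.12 in *Col4a1*, from -0.56 to 0.12 in *Col4a2*, from -0.14 to 0.79 in *Col4a3*, from -0.21 to 0.48 in *Col5a3*, from -0.58 to 0.17 in *Col6a1* and from -0.61 to 0.17 in *Col6a2*. It ranged from -0.62 (without KO 4) to -0.21 (without WT 2) in *Col7a1*, from -0.88 (without KO 1) to -0.04 (without WT 1) in *Col15a1*, from -0.79 (without WT 2, with a p under 0.05) to -0.24 (without WT 3) in *Col11a1*, from 0.13 (without KO 4) to 0.63 (without KO 2, with a p under 0.05) in *Col11a2* and from 0.15 (without WT 1) to 0.48 (without WT 2, with a p under 0.05) in *Col4a5*. Among the partner genes the exact test called 1 higher and 1 lower, beside 2.44% of all genes. DESeq2 called 3 higher and 1 lower, beside 3.33% of all genes. The share of all genes with a p under 0.05 was not computed for library size only, the replicate block or the left-out libraries. The counts under those settings are therefore given without a reading. On coding length the ratios became 0.924 for *Col1a1* to *Col1a2*, 2.18 for *Col3a1* to *Col1a1*, 0.88 for *Col5a1* to *Col5a2*, 2.23 for *Col4a5* to *Col4a6* and 0.944 for *Col6a1* to *Col6a2*. With library size only, 10 collagens in place of 15 had all lane 4 libraries below the others. Depth limits *Col4a3*, *Col4a4*, *Col6a5*, *Col8a2* and *Col25a1*, each below 2 CPM, whose intervals are wide.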
